A study of Apis mellifera with 24 samples.

Results

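The miRNAs described here carry the honey bee names ame-miR-37xx and ame-miR-60xx and were first described in the honey bee. They were chosen by name alone, as every entry of the miRNA table that starts with ame-miR-37 or ame-miR-60 followed by a further pair of digits, with any letter or arm suffix. The rule gave 60 miRNAs of the 178 in the table, 22 with 37xx numbers and 38 with 60xx numbers, which come from 57 hairpins. They were compared with 106 other known miRNAs and 12 that the authors had predicted. The samples were ovaries of 12 Apis mellifera ligustica queens, sisters from 1 source colony, in 4 groups of 3, and each library came from the ovary of a single queen. Each queen was kept in her own nucleus colony, so queen and hive vary together. Virgin queens (V) were not inseminated, and egg-laying queens (Q) laid eggs after instrumental insemination with semen of the same source and quantity. Egg-laying inhibited queens (C) were inseminated layers that were held for 7 days in a small cage inside their own hive. Egg-laying recovery queens (R) were caged in the same way for 7 days and then released, after which they laid again. The 9 queens of the last 3 groups are called mated queens here. Age at collection was not given in the sources used here, so time since insemination, caging and age cannot be told apart between the mated groups. Virgin and mated queens may also differ in age and in the size of the ovary, which cannot be told apart from insemination.

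miRNAs are short RNAs cut from hairpin transcripts, and 1 or both arms of a hairpin (named 5p and 3p) can give a mature strand. The mature strand guides Argonaute proteins to mRNAs, mostly by pairing through its seed near the 5′ end, and lowers their translation or stability. miRNAs that arose within a lineage are often less abundant than the widely conserved ones, and many lie inside protein-coding genes. In the honey bee queen, the ovary enlarges and its ovarioles fill with growing oocytes after mating, while a virgin queen's ovary holds few advanced oocytes. The targets of the 60 miRNAs were not examined, so roles in the ovary are not assigned to them.

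For 1 of the 60, miR-3791, which had the highest mean level of them over the 12 libraries, the study's primer list holds a sequence. It is shown because this miRNA had that mean level, although miR-6051 exceeded it in egg-laying queens 2 and 3 and in recovery queen 2, and the capitals mark bases 2 to 8 of the primer, which are the seed if the primer begins at the first base of the miRNA.
miR-3791: tCACCGGGtaggattcatcca
The primer has 21 bases and is written in DNA letters, from 5′ to 3′. Mature sequences of the other members were not used here, and no grouping by shared seed was made.

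The 12 small RNA libraries held between 128749 and 2473711 miRNA counts. The 3 virgin libraries, with 1510420 to 2473711 counts, were deeper than every mated library, with 128749 to 430457. A member with 3 counts stood at 1.21 to 1.99 CPM (counts scaled to a common library total) in a virgin library and at 6.97 to 23.3 CPM in a mated one, so a rare member is detected less easily in mated queens. miR-276, which is not a member, took 45.7% to 61.3% of the virgin counts and 29.0% to 41.8% of the mated counts, and its share lowers the share of all others. Of 6 germline genes sought in the mRNA libraries of the same queens, 3 were found. The mRNA of vasa, a germ cell helicase, was present in all 12 queens at 87.2 to 311 FPKM (a measure of abundance per length and depth, as deposited), and that of nanos, a germline regulator, at 82.9 to 180 FPKM. The mRNA of aubergine, a Piwi protein, was low, at 1.16 to 16.1 FPKM. The muscle miRNAs miR-1 and miR-133 summed to 23600 to 30479 normalized CPM (CPM after TMM scaling) in virgin queens and to 1444 to 2542 in mated queens, and the nervous system miRNAs miR-124 and miR-137 to 194 to 221 and to 13.8 to 131. Both sums were thus higher in every virgin queen than in any mated queen, but the second was carried by miR-137, as miR-124 stood at 0 to 1.99 in virgin and 0 to 12.9 in mated queens. Their part in the member results was not tested. In bulk ovary RNA, fewer cells of a type and less RNA per cell cannot be told apart.

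Virgin queen 2 stood apart from the other virgin queens. Among the 28 members that passed the count filter described below, 7 were more than 2 times as high in this queen as in both other virgin queens, against 0 for virgin queen 1 and 1 for virgin queen 3. Over all 106 miRNAs tested, the numbers were 12, 0 and 1. The 7 were miR-3747b, miR-3756, miR-3791, miR-6000a-5p, miR-6000b, miR-6045 and miR-6051, and each of them was higher still in mated queens. Of the 3 germline mRNAs, vasa stood at 174 FPKM in virgin queen 2, 96.7 and 87.2 FPKM in virgin queens 1 and 3, and 220 to 311 FPKM in the mated queens. The other germline mRNAs did not follow this order. In virgin queens 1, 2 and 3 nanos stood at 104, 106 and 82.9 FPKM and overlapped the mated queens (90.9 to 180), and aubergine was lowest in virgin queen 2 (2.72 FPKM, against 5.82 and 3.61). The relation of these mRNAs to the miRNAs was not tested. Results that rest on virgin queens are therefore given with and without this queen.

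Every one of the 60 members was detected in at least 1 library, and 27 were detected in all 12. Counts of 1 or more were found for 51, 52 and 54 members in the virgin libraries and for 32 to 43 in the mated libraries. This order followed depth: if every library had held 128749 counts, as the smallest did, the expected number was 29.9 to 31.6 in virgin queens and 32.0 to 36.3 in mated queens. At that depth all mated libraries stood slightly above the virgin ones. Many members were near the limit of detection, as 16 had at most 10 counts over all 12 libraries together. miR-6046 was found only in virgin queens, with 9, 8 and 12 counts, and had 0 counts in all 9 mated libraries together. Pooled over queens, this allows up to 1.27 CPM, and the pooled virgin level was 3.58-fold that floor (counting error of the mated side only). miR-6046 is named because its mated counts were 0, and it did not pass the count filter described below. The bound also leaves out the spread between queens, so it is a description and not a test. Another 6 members with 1 to 9 counts appeared only in virgin libraries (miR-3793, miR-6056, miR-6058, miR-6059, miR-6060 and miR-6061) and 3 with 1 or 2 counts only in mated libraries (miR-3758, miR-3773 and miR-6048). At such counts no difference between groups was detectable.

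The members made up a small part of the virgin libraries and a larger part of the mated ones. Their summed share of all miRNA counts was 0.868%, 1.73% and 0.916% in virgin queens 1, 2 and 3. It was 6.89%, 6.19% and 6.24% in egg-laying queens. It was 4.55%, 5.13% and 4.39% in inhibited queens and 5.67%, 5.10% and 4.70% in recovery queens. All mated queens thus stood above all virgin queens, and the egg-laying queens stood above every inhibited and recovery queen, while inhibited and recovery queens overlapped. With miR-276 left out of the totals, or as a sum of normalized CPM, egg-laying queens were still above all inhibited queens but overlapped the recovery queens, as recovery queen 1 (9.22%) was then above egg-laying queens 2 and 3 (8.85% and 8.79%). The mean shares were 1.17% ± 0.483 (SD, n = 3) in virgin, 6.44% ± 0.388 in egg-laying, 4.69% ± 0.387 in inhibited and 5.16% ± 0.488 in recovery queens (each n = 3). The mean of mated queens was 4.64 times that of virgin queens. The exact 95% binomial interval of a library's share was at most 0.264 percentage points wide, so depth does not limit these shares, although PCR copies are not independent molecules and the interval covers counting error only. Without virgin queen 2 the virgin mean was 0.892%. No test was made of these sums, since the members were chosen with earlier results of the data known.

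**Figure D1:**
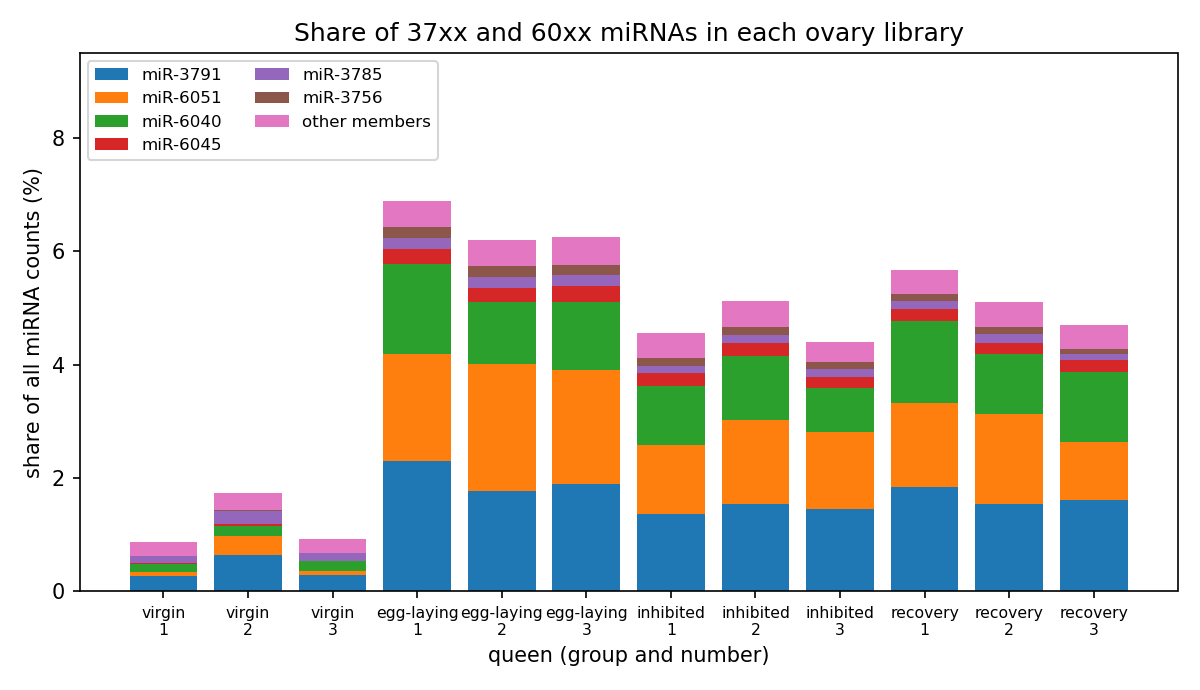
Share of the 60 members in all miRNA counts (y axis, percent) in each of the 12 libraries (x axis, group and queen), stacked by the 6 most abundant members and the remaining 54. Virgin libraries reach 0.868% to 1.73% and mated libraries 4.39% to 6.89%, and most of the increase lies in miR-3791, miR-6051 and miR-6040.

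A few members carried most of this share. miR-3791, miR-6051 and miR-6040 together held 56.1% to 66.4% of the member counts in virgin queens and 79.5% to 84.0% in mated queens. miR-3791 took 0.400% ± 0.213 of all counts in virgin queens and 1.99% ± 0.272 in egg-laying, 1.45% ± 0.0944 in inhibited and 1.66% ± 0.162 in recovery queens (SD, n = 3 each). By mean level it ranked 26 of 178 in virgin queens and 11 in mated queens. miR-6051 rose in rank from 36 to 12 and miR-6040 from 37 to 15. miR-3785, at rank 35 in virgin and 41 in mated queens, had shares of 0.167% ± 0.0603 and 0.157% ± 0.0301 (SD, n = 3 and n = 9).

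Levels were then compared miRNA by miRNA, in normalized CPM. A miRNA was tested when it had at least 10 counts in at least 3 libraries, which 28 of the 60 members and 106 of all 178 miRNAs did. The remaining 32 members held 0.300% of the member counts, with at most 83 counts each. Because the virgin libraries were deeper, this filter admitted 5 members (miR-3743, miR-6001-3p, miR-6038, miR-6043 and miR-6053) that reached 10 counts in virgin queens only, and 1, miR-3759, that did so in mated queens only. Counts over the 28 therefore say nothing of the 32. The test was edgeR's quasi-likelihood test with Benjamini-Hochberg adjustment over the 106 miRNAs, and a change was called at an adjusted p under 0.05.

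Ovary activation was examined by comparing egg-laying with virgin queens. Of the 28 members, 14 were higher in egg-laying queens, where 34% of all 106 miRNAs were, and 5 were lower, where 37.7% were. The median log2 change was 0.86 over the 28 members and -0.15 over all 106. Lack of overlap between egg-laying and virgin queens was common and not particular to members. It held for 36 higher and 42 lower miRNAs of all 106, and for 13 higher and 5 lower of the 28 members. In inhibited queens against virgin queens, 13 members were higher (34% of all tested) and 5 lower (32.1%). In recovery queens against virgin queens, 14 were higher (33%) and 4 lower (34%). The 3 comparisons share the same virgin libraries and are not independent. With virgin queen 2 left out, 23 members and 95 miRNAs passed the filter, and 17, 15 and 17 members were called in egg-laying, inhibited and recovery queens, where 73.7%, 72.6% and 75.8% of the 95 were. Scaling by library size alone moved the median change of all miRNAs in egg-laying queens from -0.15 to 0.41, and the members higher and lower then became 18 and 2 in egg-laying queens (42.5% and 20.8% of all 106), 16 and 3 in inhibited queens (41.5% and 22.6%) and 15 and 2 in recovery queens (40.6% and 23.6%). In total, 12 members were higher in all 3 mated groups (31.1% of all 106) and 15 in at least 1 (36.8%), while 3 were lower in all 3 (25.5%) and 7 in at least 1 (44.3%). These counts hold members that the filter admitted through 1 side only. Over the 22 members that reached 10 counts on both sides, 13 were higher and 3 lower in egg-laying, 12 and 3 in inhibited and 13 and 3 in recovery queens. The share over all miRNAs under this restriction was not computed, so these numbers cannot be set against the shares above.

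**Figure D2:**
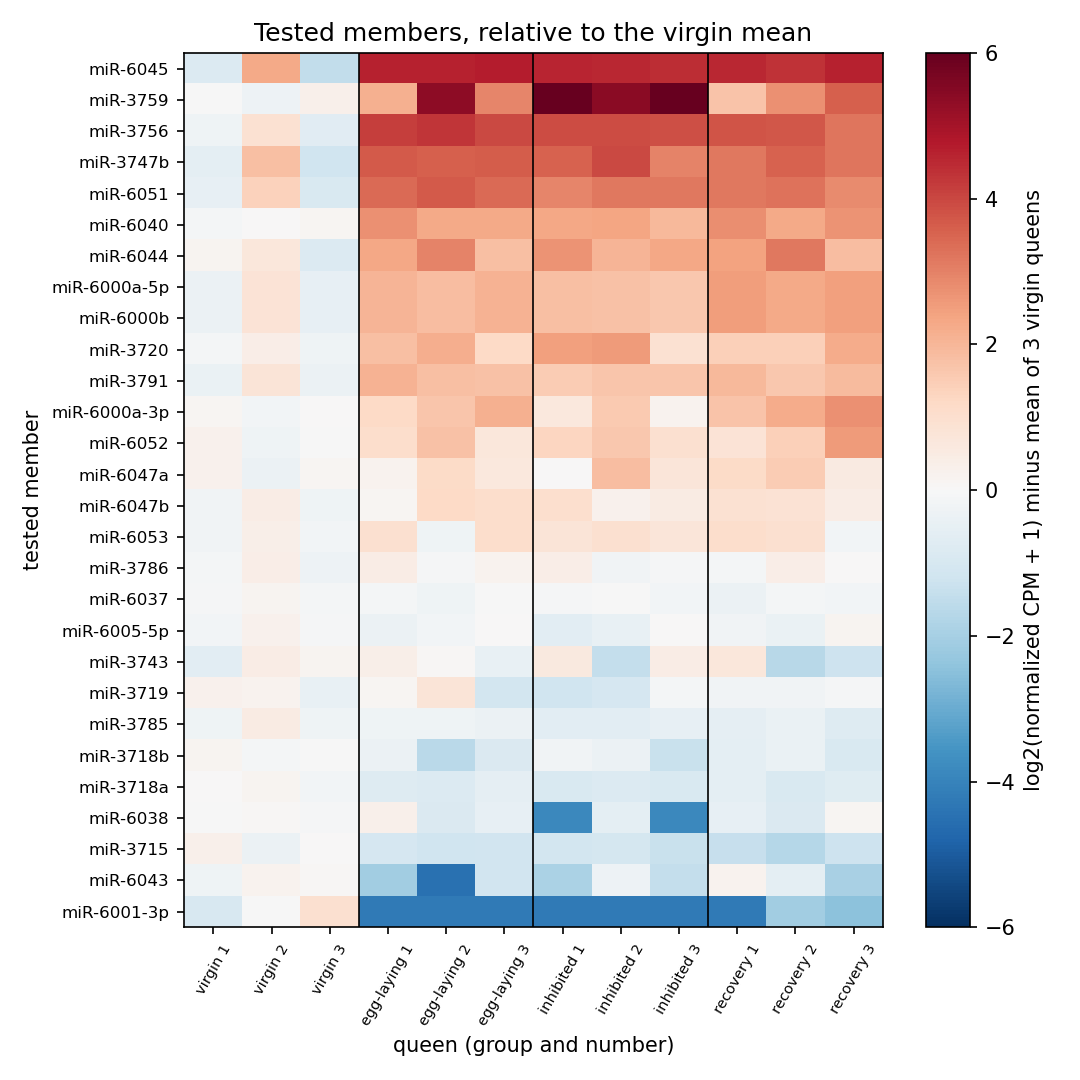
The 28 tested members (rows) in each queen (columns), as log2(normalized CPM + 1) minus the mean of the 3 virgin queens, ordered by their mean in mated queens (colour scale, log2 units). miR-6045, miR-3759 and miR-3756 stand highest over virgin queens, virgin queen 2 is above the other virgin queens for several of the upper rows, and miR-6001-3p is lowest in mated queens.

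miR-6040, an abundant member, rose from levels that were close together in the 3 virgin queens. It stood at 1846, 2028 and 2151 normalized CPM in virgin queens 1, 2 and 3, at 13604.5, 9743 and 9651 in egg-laying queens, at 10089, 10461 and 7840 in inhibited queens and at 13741, 9696 and 13105 in recovery queens. Every mated queen was above every virgin queen, and virgin queen 2 did not differ from the others. The log2 fold change against virgin queens was 2.45 ± 0.20 (SE, edgeR adjusted p = 2.67e-07) in egg-laying, 2.24 ± 0.20 (7.21e-07) in inhibited and 2.60 ± 0.20 (2.00e-07) in recovery queens.

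miR-6051 stood at 1106, 4038 and 805 normalized CPM in virgin queens 1, 2 and 3 and between 10977 and 19749 in mated queens (median 13950). Virgin queen 2 was 4.22 times the mean of the other virgin queens, yet below every mated queen. Its log2 change in egg-laying queens was 3.13 ± 0.47 (SE, edgeR adjusted p = 7.57e-05), and 4.17 without virgin queen 2. miR-3791 stood at 3420, 7795 and 3599 normalized CPM in virgin queens and at 13065 to 19540 in mated queens (median 15331), again with no overlap. Its log2 change in egg-laying queens was 1.77 ± 0.27 (edgeR adjusted p = 7.96e-05), and 2.25 without virgin queen 2. In RefSeq the miR-3791 hairpin overlaps that of miR-3478, which is not a member and was 3.72 times as high in mated as in virgin queens, so reads of these neighbours may not be fully separated.

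miR-6045 and miR-3756 were scarce in virgin ovaries and among the 48 most abundant miRNAs over all libraries. miR-6045 stood at 49.7, 437 and 31.8 normalized CPM in virgin queens and at 1799 to 2365 in mated queens (median 2144). The mated queens were close together, while virgin queen 2 was 10.7 times the mean of the other virgin queens. The log2 change in egg-laying queens was 3.73 ± 0.74 (SE, edgeR adjusted p = 0.000581), and 5.79 without virgin queen 2. miR-3756 stood at 74.2, 168 and 55.1 normalized CPM in virgin queens, at 1576, 1730 and 1397 in egg-laying queens, at 1333, 1330 and 1286 in inhibited queens and at 1219, 1167 and 820 in recovery queens. The lowest mated queen was thus well above the highest virgin queen. Its log2 change in egg-laying queens was 3.99 ± 0.36 (edgeR adjusted p = 6.32e-07), and 4.58 without virgin queen 2.

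Of the members at lower levels, miR-3747b stood at 8.19, 47.2 and 4.97 normalized CPM in virgin queens and at 109 to 214 in mated queens (median 162). It rose by a log2 change of 3.18 ± 0.61 in egg-laying queens (SE, edgeR adjusted p = 0.000503), or 4.66 without virgin queen 2. miR-3720 stood at 110, 160 and 99.9 in virgin queens and at 229 to 708 in mated queens (median 428), with a log2 change of 1.75 ± 0.41 (edgeR adjusted p = 0.00200). It varied within the inhibited queens, which stood at 669, 708 and 229 normalized CPM. miR-6044 stood at 9.82, 14.4 and 4.47 in virgin queens and at 32.6 to 86.3 in mated queens (median 47.2), with a log2 change of 2.35 ± 0.50 in egg-laying queens (edgeR adjusted p = 0.00107). miR-6052 stood at 60.6, 40.8 and 49.7 in virgin queens and at 81.5 to 295 in mated queens (median 122), with a log2 change of 1.15 ± 0.43 (edgeR adjusted p = 0.0272). None of these 4 overlapped between virgin and mated queens, although the call of miR-6052 in egg-laying queens was lost without egg-laying queen 2 (adjusted p = 0.113) and that in inhibited queens without inhibited queen 2 (adjusted p = 0.0705).

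The hairpins of miR-6047a and miR-6047b overlap each other in RefSeq. miR-6047b was called in egg-laying queens (log2 change 0.83 ± 0.32, edgeR adjusted p = 0.0324) and miR-6047a in inhibited (1.08 ± 0.45, 0.0471) and recovery queens (1.11 ± 0.41, 0.0293). Virgin and mated queens overlapped for both, with 11.2 to 18.0 against 15.2 to 55.8 normalized CPM for miR-6047a and 42.7 to 68.8 against 55.7 to 117 for miR-6047b. miR-6047b lost its call without virgin queen 1 or 3 or egg-laying queen 2 or 3, with an adjusted p up to 0.119. miR-6047a lost its call under 16 of 23 alternatives in inhibited queens (adjusted p up to 0.421) and under 5 of 23 in recovery queens (up to 0.145), the removal of virgin queen 2 among them in both.

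**Figure D3:**
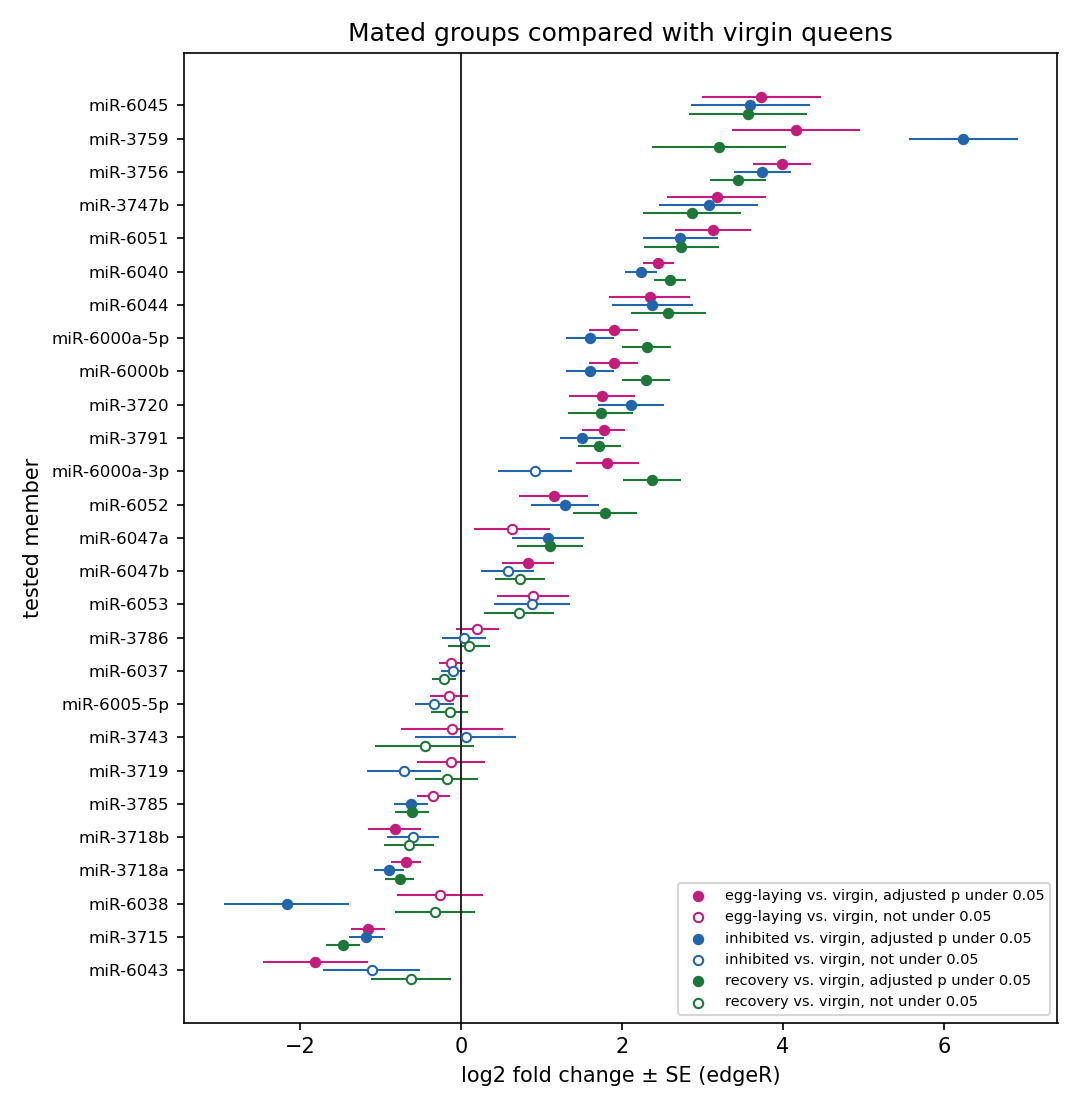
Log2 fold change ± SE (x axis, edgeR) of 27 tested members (y axis) in egg-laying, inhibited and recovery queens, each against the same 3 virgin queens. Filled points have an adjusted p under 0.05 and open points do not. miR-6001-3p is left out because it had no counts in 7 of the 9 mated libraries, and miR-6038 had 2 counts in all in inhibited queens. miR-3759, miR-3743, miR-6038, miR-6043 and miR-6053 passed the filter through 1 side only, so their points, filled or open, are a description. miR-6037 lies near 0 in all 3 groups.

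Fewer members were lower in mated queens. miR-3715 stood at 861, 538 and 700 normalized CPM in virgin queens and at 207 to 338 in mated queens (median 296), with no overlap. Its log2 change was -1.15 ± 0.21 in egg-laying (SE, edgeR adjusted p = 0.000386), -1.18 ± 0.21 in inhibited (0.000359) and -1.47 ± 0.21 in recovery queens (5.43e-05). This fall was called under all 24 alternatives in egg-laying queens. miR-3718a stood at 398, 450 and 350 in virgin queens and at 207 to 277 in mated queens, also with no overlap, and its log2 change was -0.68 ± 0.18 in egg-laying queens (edgeR adjusted p = 0.00470). When libraries were scaled by size alone the change was -0.12 (adjusted p = 0.600), so the call in egg-laying queens depends on the scaling. In inhibited queens the change was -0.90 ± 0.19 (edgeR adjusted p = 0.000895) and was called under all 24 alternatives. In recovery queens it was -0.76 ± 0.18 (0.00224), and that call was also lost with scaling by size alone. miR-3718b, whose hairpin overlaps that of miR-3718a, stood at 72.6, 59.2 and 64.1 in virgin queens and at 20.7 to 55.8 in mated queens. It was called in egg-laying queens only (-0.82 ± 0.33, edgeR adjusted p = 0.0395), and the call was lost under 9 of 23 alternatives, among them without virgin queen 1 or 3 and without egg-laying queen 2 or 3 (adjusted p up to 0.558 over all alternatives).

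miR-6001-3p, whose hairpin overlaps Vhdl (a lipoprotein gene), had 16, 22 and 72 counts in virgin queens. It had 0 counts in each egg-laying and each inhibited queen, and 0, 1 and 1 in recovery queens. The virgin libraries pooled held 110 counts, 72 of them from virgin queen 3. Against the floor of 3 counts over a group, this pooled level was at least 3.88-fold that of egg-laying queens and at least 3.94-fold that of inhibited queens. These bounds leave out the spread between queens and the counting error of the virgin side. Against all 9 mated queens, which held 2 counts in all, the ratio of pooled counts was 20.4. This ratio is imprecise and also leaves out the spread between queens. It is among the members counted as lower in all 3 mated groups, but it passed the filter only through the 3 virgin libraries, where it was high, and was not tested once any of them was left out. Its counts are therefore a description, and no p is given.

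Of the last members with a fall, miR-3785, an abundant member, stood at 1653, 2854 and 1697 normalized CPM in virgin queens and at 1165 to 1683 in mated queens (median 1435), so that the groups overlapped. Its log2 change was -0.62 ± 0.21 in inhibited (SE, edgeR adjusted p = 0.0187) and -0.61 ± 0.21 in recovery queens (0.0193), and without virgin queen 2 it was -0.35 (0.0521) and -0.32 (0.0654). The call was also lost without inhibited queen 1 or 2 and without recovery queen 3, with an adjusted p of up to 0.428 and 0.446 over all alternatives. miR-6043 had 33, 31 and 45 counts in virgin queens and 1, 0 and 4 in egg-laying queens. miR-6038 had 24, 18 and 26 counts in virgin queens and 0, 2 and 0 in inhibited queens. They are counted above as lower in egg-laying and in inhibited queens, respectively, but both passed the filter only through the virgin libraries, where they were high, so their counts are also a description and no p is given.

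Of the 28 members, 6 were called in none of the 6 comparisons, as were 18.9% of all 106 miRNAs. miR-6037, an abundant one, stood at 960, 1103 and 922 normalized CPM in virgin queens and at 783 to 971 in mated queens. Its log2 change in egg-laying queens was -0.12 ± 0.15 (SE, edgeR adjusted p = 0.499). miR-6005-5p stood at 171, 228 and 179 in virgin queens and at 122 to 212 in mated queens. miR-3786 stood at 114, 166 and 102 in virgin queens and at 107 to 171 in mated queens. Virgin and mated queens overlapped for all 3, and for the other 3, miR-3719, miR-3743 and miR-6053, at 3.45 to 62.0 normalized CPM over all queens.

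Oviposition inhibition was examined by comparing inhibited with egg-laying queens, and no member was called, as none of the 106 miRNAs was (0%, edgeR). At an unadjusted p under 0.05 there was 1 member of 13 miRNAs, and DESeq2 called 0 members as well. The groups did not overlap for 9 members, 1 higher and 8 lower in inhibited queens, while 31.1% of all 106 miRNAs did not overlap. The 8 were miR-3718a, miR-3756, miR-3785, miR-3791, miR-6000a-5p, miR-6000b, miR-6045 and miR-6051, with log2 changes between -0.41 and -0.13. Their edgeR adjusted p lay between 0.601 and 0.961, which does not show that they were equal in the 2 groups. Between recovery and egg-laying queens no miRNA was called either (0%), with 0 members and 8 miRNAs at an unadjusted p under 0.05, and DESeq2 called 0 members.

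The member that was higher, miR-3759, was the one with the largest differences between mated groups. It stood at 2.18, 1.60 and 2.98 normalized CPM in virgin queens (4, 2 and 6 counts), at 12.8, 131 and 23.3 in egg-laying queens (3, 19 and 10 counts), at 208, 137 and 229 in inhibited queens (41, 32 and 63 counts) and at 9.36, 20.7 and 36.9 in recovery queens (3, 6 and 15 counts). Inhibited queens were thus the highest group, egg-laying queen 2 reached nearly the lowest of them, and recovery queens lay below all inhibited queens and overlapped the egg-laying queens. The log2 change from egg-laying to inhibited queens was 2.08 ± 0.60 (SE, edgeR adjusted p = 0.237). Without egg-laying queen 2 it was 3.31 (adjusted p = 0.00240), and without virgin queen 2, which enters through the shared fit and scaling, it was 2.14 (0.0212). These were the only 2 of its 23 alternatives with a call, and it was not called under the other 21. Over all its alternatives the adjusted p ranged from 0.00240 to 0.521.

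Oviposition recovery was examined by comparing recovery with inhibited queens, and 1 miRNA of 106 was called (0.943%), which was miR-3759. Its log2 change was -3.04 ± 0.62 (SE, edgeR adjusted p = 0.0323), and all 3 recovery queens were below all 3 inhibited queens. DESeq2 gave -3.10 (adjusted p = 0.000112). The change stayed between -3.68 and -2.68 over the alternatives, but the call was lost without inhibited queen 1 (adjusted p = 0.142) or 3 (0.180) and without recovery queen 1 (0.128), 2 (0.168) or 3 (0.0750). miR-3759 is also counted above as higher than in virgin queens in all 3 mated groups, but it reached 10 counts in mated libraries only, which admitted it to the test, so no p is given for those comparisons. Recovery queen 1, with 3 counts, stood nearest to the virgin queens.

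In the same comparison 5 members did not overlap, 3 higher and 2 lower in recovery queens, against 18.9% of all 106 miRNAs. Besides miR-3759 they were miR-3756, which was lower, and the 3 members of the miR-6000 hairpins, which were higher. miR-6000a-3p stood at 13.6, 11.2 and 12.9 normalized CPM in virgin queens, at 30.0, 41.3 and 58.2 in egg-laying queens, at 20.3, 38.6 and 14.5 in inhibited queens and at 43.7, 62.2 and 91.1 in recovery queens. Its counts in inhibited queens were 4, 9 and 4, so its level there was imprecise. It was called against virgin queens in egg-laying (1.82 ± 0.39, edgeR adjusted p = 0.00111) and recovery queens (2.37 ± 0.36, 7.57e-05), while the log2 change from inhibited to recovery queens was 1.45 ± 0.43 (adjusted p = 0.189).

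**Figure D4:**
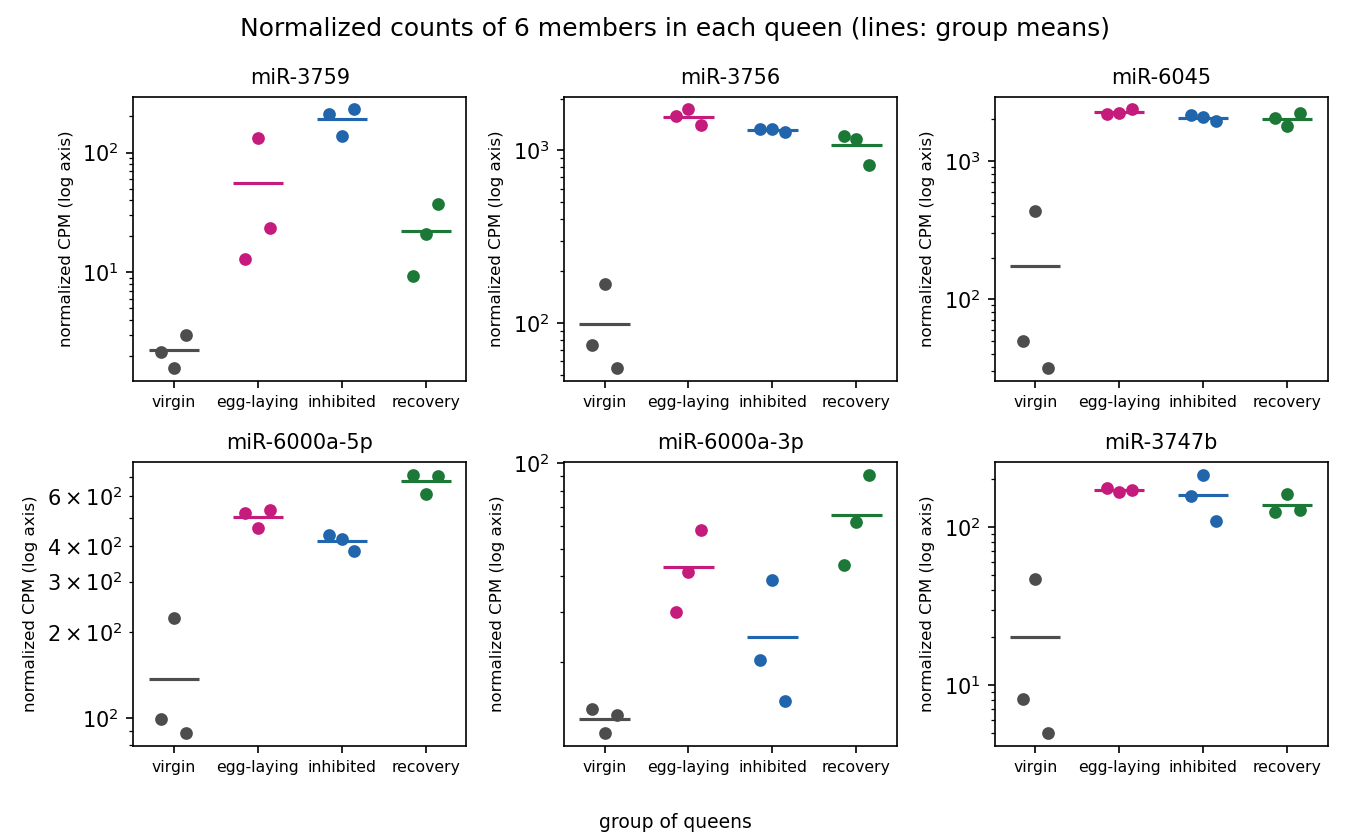
Normalized CPM (y axis, log scale, a separate range in each panel) of 6 members in each queen (points) of the 4 groups (x axis), with group means as lines. miR-3759 is highest in inhibited queens (137 to 229) and egg-laying queen 2 stands apart at 131, miR-6000a-5p is highest in recovery queens (608 to 711), and virgin queen 2 is above the other virgin queens for miR-6045, miR-3756, miR-3747b and miR-6000a-5p.

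miR-6000a-5p stood at 99.3, 223 and 88.4 normalized CPM in virgin queens, at 522, 462 and 533 in egg-laying queens, at 436, 425 and 385 in inhibited queens and at 711, 608 and 702 in recovery queens. No group overlapped another. Against virgin queens its log2 change was 1.90 ± 0.30 in egg-laying (SE, edgeR adjusted p = 0.000106), 1.61 ± 0.30 in inhibited (0.000490) and 2.31 ± 0.30 in recovery queens (2.16e-05). From inhibited to recovery queens it was 0.70 ± 0.30 and was not called (adjusted p = 0.490). It was called there when virgin queen 2 was left out of the shared fit (0.72 ± 0.17, adjusted p = 0.00839) and when only these 2 groups were fitted (0.67 ± 0.19, 0.0323). Under every other alternative, DESeq2 and the removal of each other library among them, it was not called there. miR-6000b carried nearly the same counts as miR-6000a-5p, 2033 against 2037 in total, equal in 9 of 12 libraries and at most 2 apart in the others. Their hairpins overlap in RefSeq, and these entries were not separable, so they count as 1 measurement that the table lists under both names. Without miR-6000b, an alternative chosen after the data were seen, 17, 17 and 18 members were called in egg-laying, inhibited and recovery queens against virgin queens. Of these, 13, 12 and 14 were higher and 4, 5 and 4 lower. The share over all miRNAs was not computed for this alternative. In the main fit 19, 18 and 18 of 28 members were called, beside 76, 70 and 71 of all 106 miRNAs.

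Only miR-6000a had both arms past the filter. The 5p arm had 7.28, 19.9 and 6.85 counts for each 3p count in virgin queens and 7.70 to 26.5 in mated queens. The mean log2 ratio was 3.29 ± 0.85 (SD, n = 3) in virgin and 3.66 ± 0.56 (SD, n = 9) in mated queens, and the difference did not exceed the spread (exact permutation test, two-sided, p = 0.395, 1 pair tested). Without virgin queen 2 the difference was -0.87 (exact permutation test, p = 0.0727). In the other hairpins with entries for both arms, 1 arm was near the limit of detection, with 14 counts in all for miR-6005-3p and 2 for miR-6001-5p.

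By name, 54 of the 57 hairpins were found in the RefSeq gene table (assembly Amel_HAv3.1, used for names and neighbours only, since the files were made with an earlier assembly). Of these, 34 overlapped a protein-coding gene (63%), as did 154 of all 238 miRNA hairpins in the table (64.7%). The table gives no strand, so an overlap does not say that gene and hairpin are transcribed together. The mRNAs of genes that a hairpin overlaps were read from their most abundant matched transcript, as a description without a test. The hairpins of miR-6040, miR-6000a and miR-6000b overlap the same gene, LOC725462, which the study's tables annotate as a vesicular glutamate transporter. Its mRNA stood at 10.7, 12.4 and 10.7 FPKM in virgin queens, at 69.3, 55.3 and 72.4 in egg-laying queens, at 52.5, 54.9 and 57.1 in inhibited queens and at 86.0, 86.8 and 88.0 in recovery queens. The mated mean was 6.13 times the virgin mean, beside 5.42 times for miR-6040 and 3.88 times for miR-6000a-5p. As for miR-6000a-5p, all recovery queens were above all other queens.

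**Figure D5:**
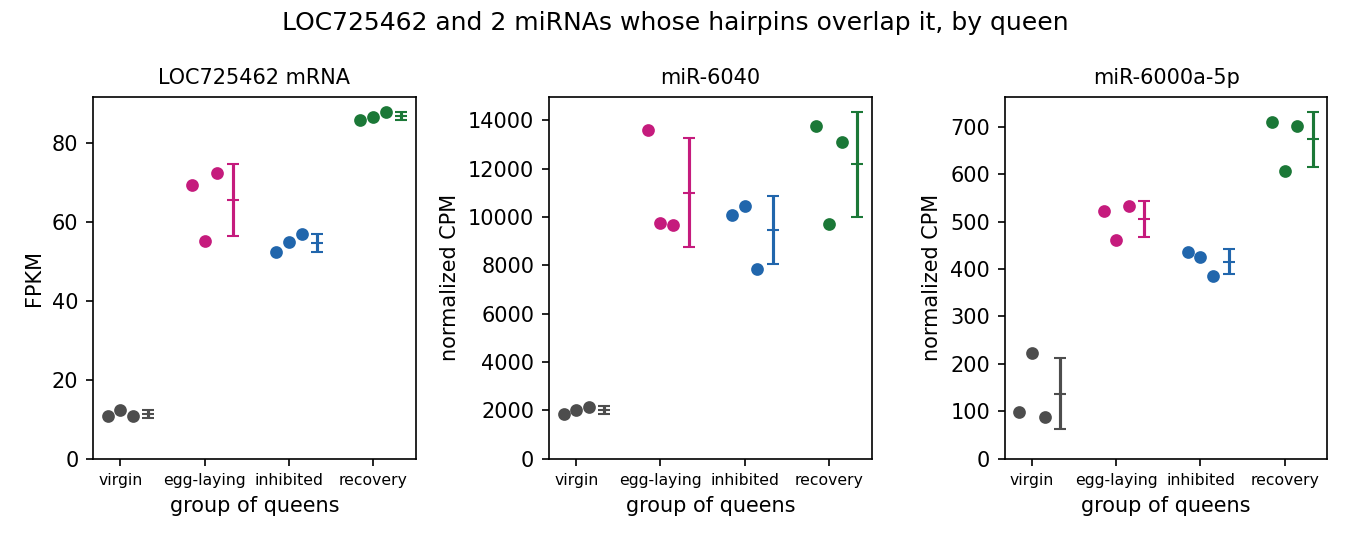
mRNA of LOC725462 (left, FPKM) and normalized CPM of miR-6040 and miR-6000a-5p, whose hairpins overlap it, in each queen (points), with the group mean ± SD (bars, n = 3). LOC725462 lies at 10.7 to 12.4 FPKM in virgin queens and at 86.0 to 88.0 FPKM in recovery queens, and the y axes start at 0.

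Other members and the mRNA of the gene they overlap did not always move together. The pairs given here are examples, and members such as miR-3720, miR-3743, miR-3786 and miR-6043 also overlap a gene but are left out. The mRNA of LOC724517, which the miR-6052 hairpin overlaps, had a mated mean 2.90 times the virgin mean, beside 2.75 times for miR-6052. That of LOC411083, which the miR-6044 hairpin overlaps, was 2.51 times as high, beside 5.49 times for miR-6044. This hairpin also overlaps a long noncoding RNA gene, LOC107964422. The mRNA of LOC412161, which the miR-3747b hairpin overlaps, stood at 24.8 ± 3.17 FPKM in virgin queens and at 24.6 ± 3.66 FPKM in egg-laying queens (SD, n = 3). Its mated mean was 1.10 times the virgin mean, beside 7.78 times for miR-3747b. The mRNA of LOC409485 stood at 52.1 ± 2.26 FPKM in virgin queens and at 47.5 ± 1.71 FPKM in egg-laying queens. Its mated mean was 0.910 times the virgin mean, beside 3.18 times for miR-3791, whose hairpin overlaps it. The reverse was seen for LOC409291, which the miR-6005 hairpin overlaps. Its mRNA was 2.03 times as high in mated queens, while the levels of miR-6005-5p overlapped between virgin and mated queens.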

How the data were processed

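Small RNA and mRNA libraries were made from the ovary of each of 12 queens, 3 in each of 4 groups, and the labels gave the group. Per the paper, the authors mapped small RNA reads to Amel_4.5 with Bowtie, identified known miRNAs among the mapped reads with miRBase and predicted further ones. The deposited counts of reads per miRNA are whole numbers with unequal library totals, that is, not normalized. They also deposited TPM values, which for the miRNAs are counts divided by the library total on a fixed scale. For mRNA the authors deposited FPKM values per transcript, from TopHat alignment to Amel_4.5 and Cufflinks. No per-sample column was left unused (0).

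Members were selected by name, and the members and gene lists were chosen with earlier results of these data known. Counts entered edgeR 4.0.16 (R 4.3.3), with TMM normalization, a minimum of 10 counts in 3 libraries, and 1 quasi-likelihood fit over the 4 groups. P-values are two-sided and adjusted by Benjamini-Hochberg over the 106 miRNAs of a comparison, with a threshold of 0.05. They measure the spread between sister queens of 1 source colony, each in her own nucleus colony, so differences between hives are part of it. Fits were tested on simulated data. Exact permutation tests and binomial intervals (95%) used scipy, and expected detection at the smallest depth was computed exactly (hypergeometric). Named members are those called in any comparison, the 5 most abundant, hairpins with both arms tested, and the lowest p-values in C against Q and R against C. Alternatives were DESeq2 1.42.0, other scalings, filters of 100 counts, of a mean TPM of 20 or none, only the groups compared, log2(TPM + 1) with limma 3.58.1, known miRNAs only, a replicate block and each library left out. With 3 queens against 3, a permutation test cannot go below p = 0.1.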

Additional observations from a re-analysis of the deposited data

How the results depend on the processing

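No named change reversed its sign under any alternative, and of 56 called changes, 39 were called under every alternative that could be fitted. The 56 include calls of miR-3759, miR-6001-3p, miR-6038 and miR-6043, which passed the filter through 1 side only. Alternatives in which a member failed the filter were not counted for it, so the tally is a description. The number of members called moved by over 1.5 times with a filter of 100 counts (11 in egg-laying against virgin queens and 0 in recovery against inhibited queens, where miR-3759 was not tested) and with only the groups compared (3 in recovery against inhibited queens). Leaving out each library in turn gave 15 to 19 members called in egg-laying, 15 to 18 in inhibited and 16 to 19 in recovery queens against virgin queens, 0 to 1 in inhibited against egg-laying queens, 0 to 3 in recovery against inhibited queens and 0 in recovery against egg-laying queens. The group means of the member share ranged over 0.892% to 1.32%, 6.22% to 6.57%, 4.47% to 4.84% and 4.90% to 5.39% (virgin, egg-laying, inhibited, recovery), and the miR-6000a arm difference over -0.87 to -0.11. With miR-276 out of the totals the shares were 2.59%, 9.23%, 7.64% and 8.45%, and without miR-3791 they were 4.45%, 3.24% and 3.50% in the mated groups. Requiring 3 counts left a mean of 42.7, 29, 29 and 28.3 members detected per library. The cause of the other moves was not tested. Same-numbered libraries did not deviate together (4 of 18 correlations over 0.1). This check cannot show whether the numbers stand for a pairing or a batch, and the main fit used neither. With the replicate number as a block, 19, 17 and 18 members were called in egg-laying, inhibited and recovery queens against virgin queens, 0 in inhibited and 0 in recovery queens against egg-laying queens, and 1 in recovery against inhibited queens. Settings that changed the filter or left out a library could also change which miRNAs were tested, so a lower number called can reflect fewer tested. Apart from library size alone and the removal of virgin queen 2, shares over all miRNAs were not computed for the alternatives. The lower depth of the mated libraries limits what can be said of the rarer members there.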

Other observations

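The spread between queens of a group was summarised for tested members and for other known miRNAs. The median SD of log2(normalized CPM + 1) over the 28 members was 0.36 in virgin, 0.28 in egg-laying, 0.32 in inhibited and 0.27 in recovery queens. Over the 76 other known miRNAs tested it was 0.29, 0.24, 0.16 and 0.24. The member with the widest spread was miR-6045 in virgin queens (2.00), miR-6043 in egg-laying queens (1.73), miR-6038 in inhibited queens (1.88) and miR-3743 in recovery queens (1.26), and the last 3 had few counts in the mated libraries. These values are a description, and the difference between the sets was not tested.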
